A study of Mus musculus with 36 samples.

Results

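The cardiac transcription factors described here are 10 genes chosen by name: Mef2a, Mef2c and Mef2d (the MEF2 family), Gata4 and Gata6, Srf and its coactivator Myocd, the T-box genes Tbx5 and Tbx20, and the homeobox gene Nkx2-5. All 10 were found among the 23352 gene entries of the series, and all 10 passed the filter of a mean of at least 1 FPKM (a fragment count scaled to gene length and library size) that left 10599 genes for testing. Total RNA of the heart apex, depleted of ribosomal RNA, had been sequenced in 36 libraries from male C57BL/6J mice aged 11 to 12 weeks and kept in 12 h light and 12 h dark. The 18 libraries labelled cK15 came from KLF15 KO hearts, and the 18 control libraries from mice with the alpha-MHC cre transgene, whose promoter is active in heart muscle cells. The labels do not say whether the cK15 mice carry that transgene too, nor in which cells Klf15 was deleted. The 6 clock times were 12 am, 4 am, 8 am, 12 pm, 4 pm and then 8 pm, and each genotype has 3 libraries at each. The series asks how circadian expression in the heart compares between the genotypes; KLF15 is a Kruppel-like zinc-finger factor.

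As background, these factors bind short DNA elements in the promoters and enhancers of heart genes and act in combination. GATA4, NKX2-5 and TBX5 bind one another and share many cardiac target genes, MEF2 proteins bind A/T-rich sites in muscle genes, and SRF binds the CArG box, where myocardin is its strong coactivator in heart and smooth muscle. In the embryo they direct the formation of the heart, and in the adult they maintain contractile and electrical genes and take part in hypertrophic growth. KLF15 is known to act on MEF2, GATA4 and myocardin in heart muscle.

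RefSeq promoters (GRCm38.p6, 250 bases before to 50 after the start) could be matched for 6 of the 10 genes, Mef2a, Mef2c, Mef2d, Tbx20, Nkx2-5 and Srf; Gata4, Gata6, Myocd and Tbx5 had no entry. The stretches that hold the elements of the factors themselves are shown, because Srf and Mef2a encode the proteins that bind them. Capitals mark the CArG boxes in Srf and the MEF2 site in Mef2a.
Srf, chr17:46556163-46556282, minus strand, GRCm38.p6: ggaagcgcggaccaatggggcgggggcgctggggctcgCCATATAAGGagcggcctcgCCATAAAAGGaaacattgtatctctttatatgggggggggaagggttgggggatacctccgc
Mef2a, chr7:67372849-67372958, minus strand, GRCm38.p6: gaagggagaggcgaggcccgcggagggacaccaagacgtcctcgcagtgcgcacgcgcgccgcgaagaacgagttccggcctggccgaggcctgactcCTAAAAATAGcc
Srf held 2 CArG boxes, which begin 82 and 62 bases before the start, and Mef2a held 1 MEF2 site, which begins 2 bases before the start and runs across it. Searched on both strands, the CArG box was present in 1.63% and the MEF2 site in 0.557% of 32851 promoters of the same length. The letters CACCC, a core of Kruppel-like factor sites, were present in 57.5% of them. The CArG box and the MEF2 site were not present in the other matched promoters. No binding was measured, and a match is only a match of letters.

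Klf15 was at 0.406 to 2.91 FPKM in the 18 control libraries. In the cK15 libraries it was listed at 0 in 13 of 18, and the highest of the others was 0.326, so that the genotypes did not overlap. The libraries fell into 2 sets by the structure of their low values. In 24 libraries the low values were whole steps of a common unit, and 12 libraries did not share these steps. The 12 comprise 1 library of each of the 12 groups, 6 per genotype. At 8 pm they are the libraries numbered 4, and at the other 5 times the cK15 library numbered 1 and the control library numbered 2. The top 10 genes held 16.1 to 17.7% of all FPKM in the 12 and 21.7 to 25.03% in the 24. Since each group has 1 library of the 12 and 2 of the 24, the sets are balanced over genotype and time, and results are also given within each set. Depth could be estimated in the 24 only, at 2642600 to 4302400 fragments. An exact 0 need not mean absence: Ttn, which encodes titin, was listed at 0 in all 36 libraries.

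In control hearts, Mef2a was at 27.3 ± 3.12 FPKM (SD, n = 18) and Tbx20 at 25.5 ± 4.75, and these did not differ beyond their spread. A gap larger than the spread separated them from Gata4 (12.3 ± 3.48), Myocd (9.55 ± 1.37), Mef2d (8.23 ± 1.81), Gata6 (7.65 ± 1.07), Srf (7.59 ± 1.72) and Mef2c (7.002 ± 1.37), whose neighbours in this order lay within 1 SD of each other. Tbx5 (4.50 ± 0.704) and Nkx2-5 (4.50 ± 1.18) were lowest, with a gap to Mef2c again larger than the spread. In cK15 hearts, Mef2a (30.2 ± 3.64) and Tbx20 (28.4 ± 3.07) again stood apart from the rest, and below them each neighbour was within 1 SD of the next, from Gata4 (13.9 ± 2.97) down to Tbx5 (5.70 ± 1.14). FPKM is scaled to gene length, but the order of the genes also differed between the library sets, which the values above pool. In cK15 libraries that do not share steps, Srf was at 12.9 ± 1.26 FPKM and Myocd at 10.6 ± 1.07 (SD, n = 6). In cK15 libraries that share them, Srf was at 7.97 ± 1.07 and Myocd at 11.4 ± 1.40 (SD, n = 12). Mef2a and Tbx20 had the highest means in each set and genotype. The gaps and spreads above hold for the pooled values.

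**Figure D1:**
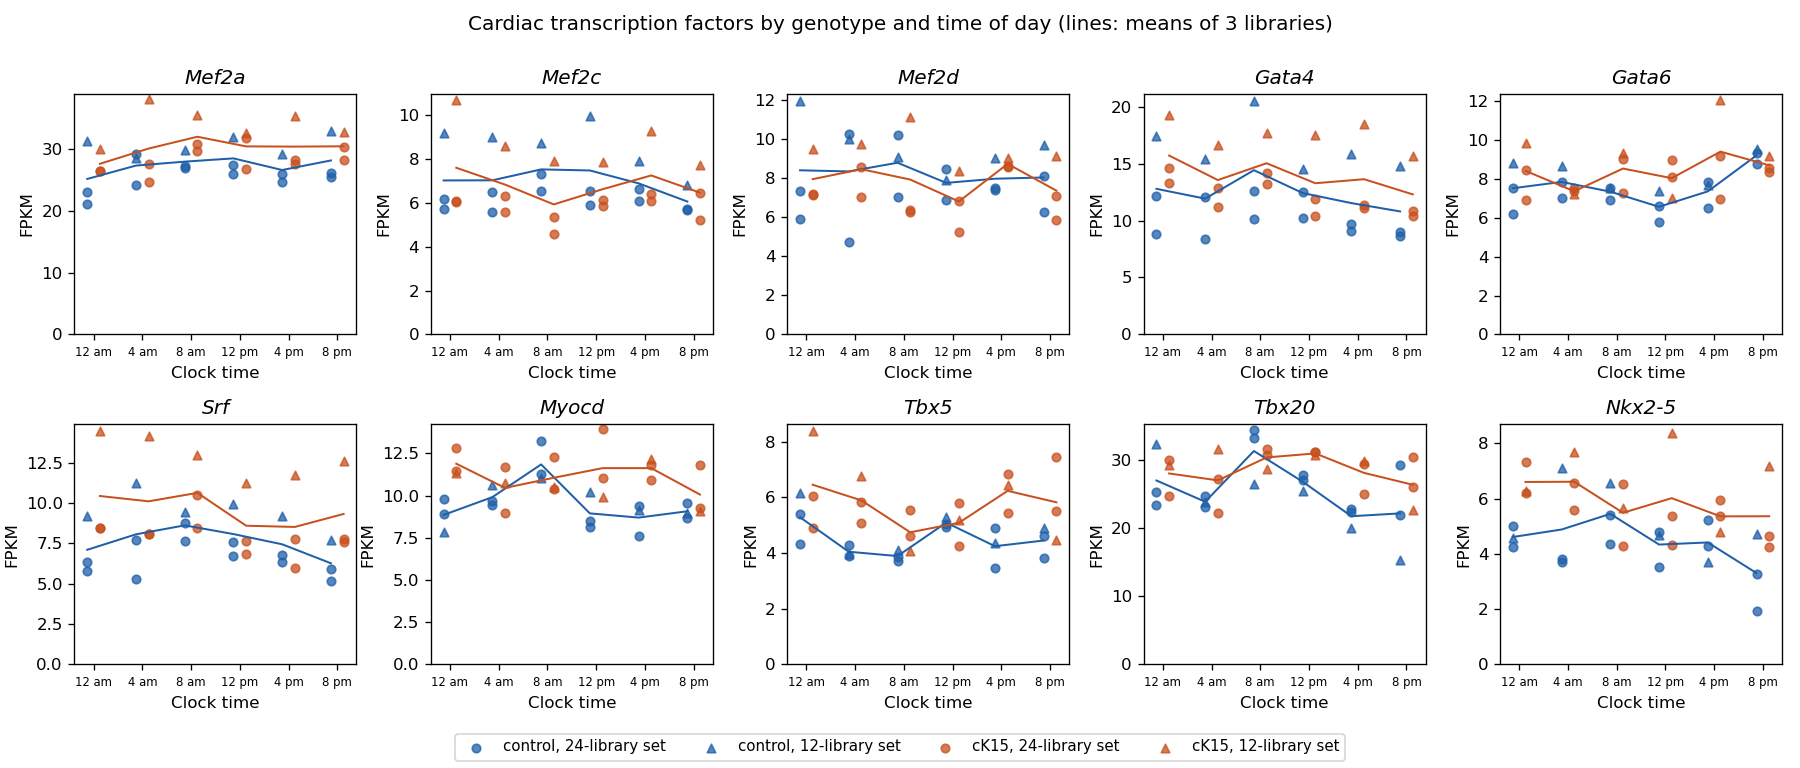
FPKM of the 10 factors (y axis, from 0) against clock time (x axis). Points are single libraries, blue for control and orange for cK15, circles for the 24 libraries whose low values share steps and triangles for the other 12; lines join the means of 3 libraries. For Gata4 the triangles lie above the circles of the same genotype, and for Tbx20 they do not.

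Averaged over the 6 times, Myocd, Tbx5 and Nkx2-5 rose, by 1.15-fold, 1.21-fold and 1.27-fold when fitted on log2(FPKM + 1), where low genes show less than their full change, and 0 of the 10 fell (limma, adjusted p under 0.05 over all 10599 genes). Of all genes tested, 4.06% were called higher and 7.18% lower, 430 and 761 genes. With quantile normalization these were 635 and 605, the 3 factors stayed called, and Srf was called too (limma adjusted p = 0.0216). With median-ratio rescaling they were 565 and 658, and Srf (limma adjusted p = 0.0346) and Mef2a (0.0376) were called beside the 3. On the values as deposited, the log2 fold change was above 0 for 8 of the 10. Of these, 6 had an unadjusted p under 0.05, all higher, as had 8.91% of all genes. The median log2 fold change of the 10 was 0.18, beside -0.012 over all genes tested.

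The replicate numbers of the labels were treated as pairing here. Only numbers 3 and 4 occur in both genotypes, so with the number as a fixed block the averaged difference rests on those libraries. In that fit Nkx2-5 was no longer called (log2 fold change 0.33, limma adjusted p = 0.0645) while Myocd (0.0249) and Tbx5 (0.0298) were. With each genotype's replicate series as a random block, 0 of the 10 were called (limma adjusted p = 0.21 for Myocd, 0.15 for Tbx5 and 0.33 for Nkx2-5), and 346 genes were called in place of 1191. Without control replicate 3 the 3 genes also missed the threshold (0.0579, 0.0727 and 0.114) and Tbx20 passed it (0.0484). Without cK15 replicate 4, Tbx5 was called (limma adjusted p = 0.0152) and Myocd (0.0779) and Nkx2-5 (0.0675) were not. Without cK15 replicate 3 the count rose to 5 and without control replicate 2 to 6, where 454 and 529 of the 10599 genes were called higher. Genes called higher numbered 234 without control replicate 3 and 357 without cK15 replicate 4. Leaving out a series undoes the balance of the library sets between genotypes, so the effects of series and set cannot be told apart there.

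Nkx2-5, on chromosome 17 at 26838664 to 26845009 (GRCm38, GENCODE, as for the genes below), encodes the homeodomain factor of heart progenitors and the conduction system. In control hearts it ran from 1.94 to 7.12 FPKM with a median of 4.47, and in cK15 hearts from 4.23 to 8.38 with a median of 5.81. The ranges overlap widely, with the control libraries reaching lower. Over the 6 times the log2 fold change averaged 0.34 (SE 0.094; limma adjusted p = 0.0150), and the difference was above 0 at 6 of 6 times. At 12 am the control libraries were at 4.26, 4.56 and 5.01 FPKM and the cK15 libraries at 6.21, 6.28 and 7.32. The groups did not overlap there. At 8 pm the control libraries were at 1.94, 3.26 and 4.72 and the cK15 libraries at 4.23, 4.66 and 7.19, a log2 difference of 0.59 (SE 0.23) that did not pass the test (limma adjusted p = 0.380). At 8 am the 2 means were nearly the same, 5.45 and 5.49 FPKM.

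The fragments behind a value could be estimated for Nkx2-5 and Tbx5, for which 1 annotated transcript length turned the FPKM of the 24 libraries into whole numbers (within 0.1). For Nkx2-5 this was a transcript of 1525 bases, and 24 of 24 values were whole. A library held 8 to 37 fragments of Nkx2-5, median 21.5. The cK15 libraries held 296 in all and the control libraries 242, a ratio of 1.335 once scaled to the libraries' totals. The variance within groups was 0.628 times what counting alone gives.

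Tbx5, on chromosome 5 at 119832668 to 119885219, encodes a T-box factor of the atria, the left ventricle and the conduction system. It ran from 3.47 to 6.14 FPKM in control hearts (median 4.33) and from 4.07 to 8.39 in cK15 hearts (median 5.54). Over the 6 times the log2 fold change averaged 0.28 (SE 0.067; limma adjusted p = 0.00507). At 4 am the control libraries were at 3.89, 3.97 and 4.28 FPKM and the cK15 libraries at 5.07, 5.82 and 6.77. At 4 pm they were at 3.47, 4.36 and 4.91 in control and at 5.42, 6.45 and 6.82 in cK15. The groups did not overlap at these 2 times, while at 12 pm the means were 5.09 and 5.08. In the 24 libraries Tbx5 was whole in 23 of 24 with a transcript of 3942 bases, at 45 to 102 fragments per library. The cK15 libraries held 836 fragments and the control libraries 706, a scaled ratio of 1.293, and the variance within groups was 1.44 times that of counting.

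Myocd, on chromosome 11 at 65176561 to 65269989, encodes myocardin, which does not bind DNA itself but is brought to CArG boxes by SRF. It ran from 7.58 to 13.2 FPKM in control hearts (median 9.41) and from 8.95 to 13.9 in cK15 hearts (median 11.2). Over the 6 times the log2 fold change averaged 0.20 (SE 0.051; limma adjusted p = 0.00802). At 12 am the control libraries were at 7.84, 8.92 and 9.81 FPKM and the cK15 libraries at 11.3, 11.5 and 12.8. At 4 pm they were at 7.58, 9.15 and 9.35 against 10.9, 11.8 and 12.2. Neither pair of groups overlapped, and at 8 am the order was the other way, with means of 11.8 FPKM in control and 11.1 in cK15 and overlapping groups.

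Srf, on chromosome 17 at 46548329 to 46556175, encodes the MADS-box factor that myocardin works through. It was at 5.18 to 11.2 FPKM in control hearts (median 7.61) and at 6.01 to 14.4 in cK15 hearts (median 8.43). The averaged log2 fold change of 0.29 (SE 0.11) did not pass the test (limma adjusted p = 0.0857), and it was above 0 at 6 of 6 times. Srf was called in 6 of the 16 alternative settings, with limma adjusted p from 6.6e-05 to 0.46 over the 16. The 2 library sets differed strongly in this gene, by 0.54 on the log2 scale (12 minus 24). Among the cK15 libraries the 12-library set lay at 11.3 to 14.4 FPKM and the 24-library set at 6.01 to 10.5, with no overlap. At each time the 12-library set holds 1 library of each genotype, whose numbers differ except at 8 pm, and it gave 14.4 FPKM in cK15 against 9.18 in control (12 am), 14.1 against 11.2 (4 am), 12.96 against 9.45 (8 am), 11.3 against 9.95 (12 pm), 11.8 against 9.19 (4 pm) and 12.6 against 7.68 (8 pm). The cK15 library was the higher at 6 of 6 times. Among the 11 same-numbered pairs of the 24 libraries, cK15 was higher in 8 and lower in 3, at 8.43 against 8.76 FPKM (8 am), 6.85 against 7.58 (12 pm) and 6.01 against 6.37 (4 pm).

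Gata4 and Gata6 encode zinc-finger factors that bind the GATA motif. Gata4, on chromosome 14 at 63198922 to 63271692, differed between the library sets without overlap in both genotypes: the 12-library set lay at 14.5 to 20.5 FPKM in control and 15.7 to 19.3 in cK15, and the 24-library set at 8.37 to 12.6 and 10.4 to 14.6. That set difference, 0.57 on the log2 scale, was larger than the averaged genotype difference of 0.18 (SE 0.11; limma adjusted p = 0.365). Gata6, on chromosome 18 at 11052064 to 11085635, was at 7.65 ± 1.07 FPKM in control hearts and 8.42 ± 1.31 in cK15 hearts (SD, n = 18). The libraries ran from 5.76 to 9.55 (median 7.55) and from 6.93 to 12.1 (median 8.42), and overlapped widely. The log2 fold change of 0.12 (SE 0.059) did not pass the test (limma adjusted p = 0.216).

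The MEF2 genes encode MADS-box factors of muscle, and they and Tbx20 did not pass the test either. Mef2a, on chromosome 7 at 67231163 to 67372858, ran from 21.1 to 32.9 FPKM in control hearts (median 27.1) and from 24.6 to 38.1 in cK15 hearts (median 29.8). It had a log2 fold change of 0.14 (SE 0.059; limma adjusted p = 0.140) and a mean log2 level that was higher in cK15 at 6 of 6 times, by 0.092 to 0.19. Mef2c was at 5.59 to 9.96 FPKM in control hearts (median 6.55) and 4.56 to 10.7 in cK15 hearts (median 6.21), and Mef2d at 4.73 to 11.97 (median 8.02) and 5.23 to 11.1 (median 7.79). Mef2c, on chromosome 13 at 83504034 to 83667080, had -0.047 (SE 0.091) and Mef2d, on chromosome 3 at 88142372 to 88172086, -0.049 (SE 0.098), with limma adjusted p = 0.838 and 0.845. Leaving out cK15 replicate 3 or control replicate 2 turned the sign of both. Either step also leaves cK15 with a larger share of the 12-library set than control. That set lay higher by 0.45 for Mef2c and 0.36 for Mef2d on the log2 scale, and its part in the change of sign was not tested. Mef2d shares its 3′ end with the antisense gene 1700113A16Rik, at a mean of 18.5 FPKM; no source used here says whether counting used strand, so its level is uncertain. Tbx20, on chromosome 9 at 24718138 to 24774303, encodes a T-box factor of heart muscle and endocardium and had 0.17 (SE 0.064; limma adjusted p = 0.0892). Its 3 libraries did not overlap between genotypes at 12 pm (25.5, 27.1 and 27.8 FPKM in control; 30.6, 31.1 and 31.1 in cK15) and at 4 pm (19.997, 22.4 and 22.8; 24.98, 29.4 and 29.8).

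**Figure D2:**
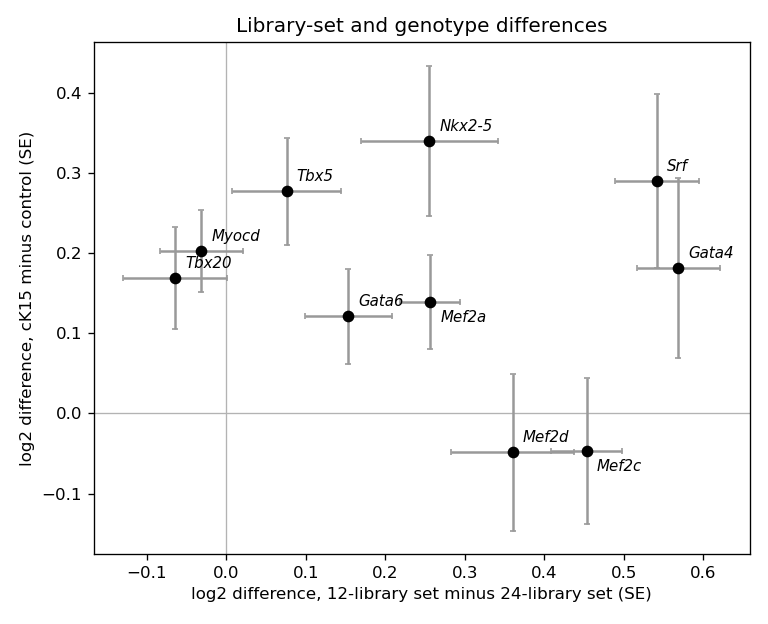
Averaged log2 difference between genotypes (y axis, cK15 minus control) against the log2 difference between library sets (x axis, the 12 minus the 24), both on log2(FPKM + 1) with bars of 1 SE, for the 10 factors. Gata4 and Srf lie far right at 0.57 and 0.54, while Myocd, Tbx5 and Tbx20 lie between -0.064 and 0.076.

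The library sets moved the factors unequally. On the log2 scale the 12 libraries were above the 24 by 0.45 for Mef2c, 0.36 for Mef2d, 0.26 for Mef2a and for Nkx2-5, and 0.15 for Gata6. Tbx5 (0.076), Myocd (-0.031) and Tbx20 (-0.064) differed little. The median over all genes tested was 0.078, and Gata4, Srf and Mef2c lay at the 97.2, 96.5 and 93.6 percentiles of all genes. The 8 cardiomyocyte markers had a median of -0.52 and ranged from -1.17 to 0.84. Ryr2 was at -0.020 (SE 0.064), and Pln, which encodes the calcium pump inhibitor phospholamban, was the 1 marker above 0, at 0.84 (SE 0.038). The genotype difference was therefore also fitted within each set and with a term for the set, alternatives that were chosen after seeing the data.

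**Figure D3:**
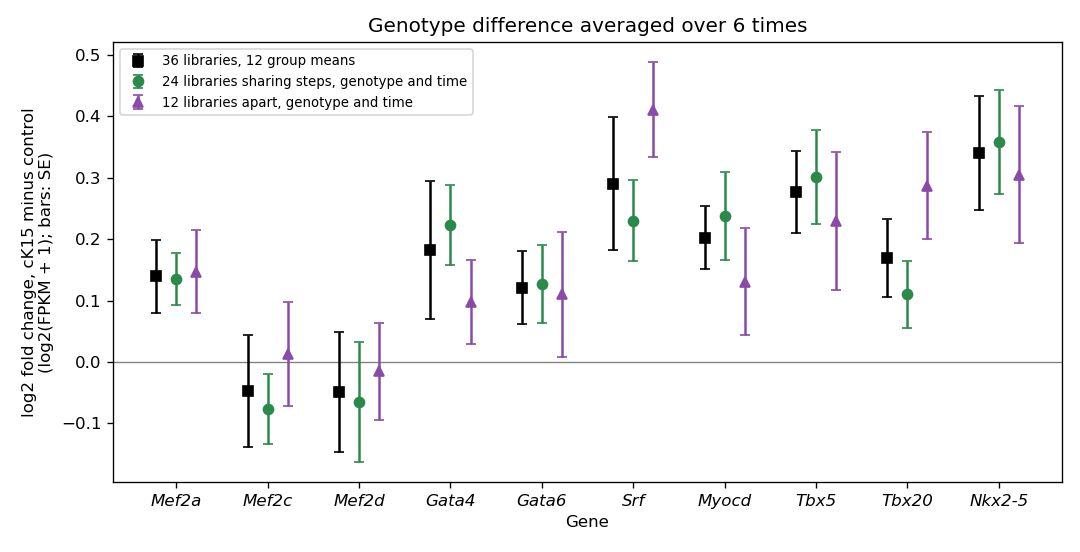
Averaged log2 fold change (cK15 minus control, log2(FPKM + 1), bars of 1 SE) of each factor in all 36 libraries (squares), within the 24 libraries (circles) and within the 12 (triangles). In 8 of the 10 genes all 3 estimates lie above 0; Mef2c and Mef2d lie around 0.

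Within the 24 libraries, in a fit of genotype and time, 6 of the 10 were called higher and 5.2% of all genes were. These were Nkx2-5 (log2 fold change 0.36, limma adjusted p = 0.00584), Tbx5 (0.30, 0.0105), Srf (0.23, 0.0238), Gata4 (0.22, 0.0250), Myocd (0.24, 0.0292) and Mef2a (0.14, 0.0358). Within the 12, Srf alone was called, at 0.41 (SE 0.077; limma adjusted p = 0.0107), where 5.43% of all genes were called and 1.9% called higher. The differences of the others in the 12 were 0.31 for Nkx2-5, 0.29 for Tbx20, 0.23 for Tbx5, 0.15 for Mef2a, 0.13 for Myocd, 0.11 for Gata6, 0.098 for Gata4, 0.013 for Mef2c and -0.015 for Mef2d. In a fit of all 36 with a term for the set, 7 of the 10 were called higher, and 8.53% of all genes. With group means fitted to the 24 alone, 5 of the 10 were called higher, and 4.42% of all genes.

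At single times 0 of the 60 gene and time pairs of the factors passed limma's test (adjusted p under 0.05), and 1.09% of all gene and time pairs did. From 12 am to 8 pm, the share of all genes that passed was 1.21, 1.12, 1.06, 0.745, 1.3 and 1.12%. At an unadjusted p under 0.05 there were 7 pairs of the 60, and 7.41% of all gene and time pairs. The cK15 mean log2 level was the higher in 48 of the 60, and in 47.7% of all pairs. All 3 cK15 libraries lay above all 3 control libraries in 7 pairs and below them in 0, while over all genes 4.17% of pairs lay above and 6.93% below. With a term for the library set, Srf passed at 12 am (0.48, SE 0.12; limma adjusted p = 0.0275) and at 8 pm (0.49, SE 0.12; limma adjusted p = 0.0232).

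**Figure D4:**
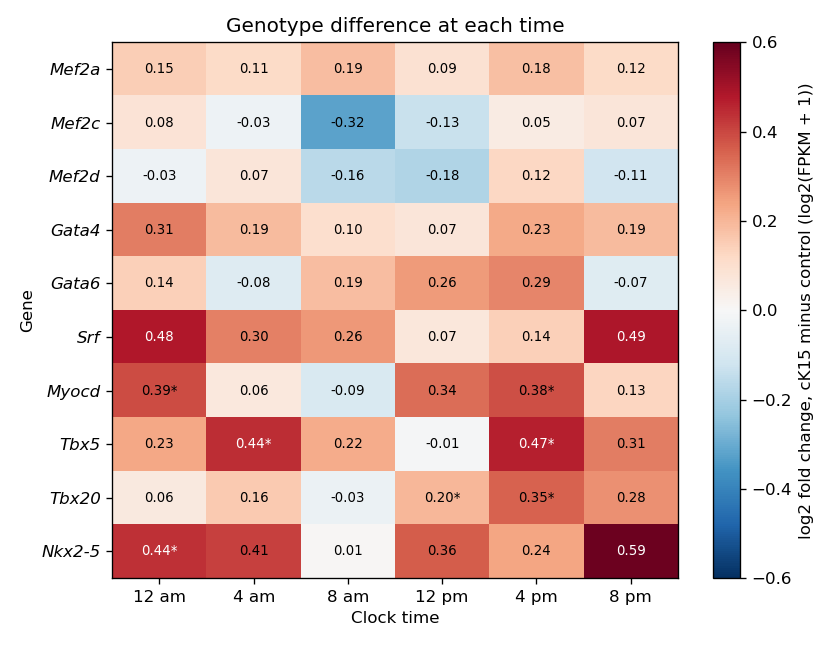
Log2 fold change (cK15 minus control, log2(FPKM + 1)) of each factor (rows) at each clock time (columns), as colour and number. An asterisk marks pairs in which all 3 cK15 libraries lie above all 3 control libraries; the highest value is 0.59, Nkx2-5 at 8 pm, and it has no asterisk.

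No factor was called rhythmic over 24 h in either genotype, in a fit of a cosine and a sine to each genotype's 18 libraries, whereas 2.8% of all genes were in control and 1.08% in cK15. In control hearts 2 of the factors had an unadjusted p under 0.05, as had 14% of all genes. Myocd had an amplitude of 0.15 on the log2 scale (SE 0.053; limma adjusted p = 0.280) with a fitted peak at hour 6.83. Tbx20 had an amplitude of 0.20 (SE 0.074; limma adjusted p = 0.344) and a peak at hour 7.29. The Myocd mean was highest at 8 am, at 11.8 FPKM, and lay between 8.70 and 9.91 at the other times. In cK15 hearts 0 of the 10 had an unadjusted p under 0.05, and 8.95% of all genes had. No difference in rhythm between genotypes passed limma's test for a factor (unadjusted p from 0.146 to 0.998), and 0% of all genes passed that test, with 2.75% at an unadjusted p under 0.05.

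Over the 12 group means, genes whose log2 levels followed each factor closely were as follows. For Nkx2-5 this was Ccdc58 (Pearson r = 0.95), for Tbx5 Kif1c (0.92), and for Tbx20 Setd7 (0.93) and Wnk1 (0.92). For Srf they were Mmp15 (0.95) and Stk24 (0.94), for Myocd Supt6 (0.91) and Ccnyl1 (0.90), and for Gata4 Arhgap12 (0.94) and Inpp5j (0.92). For Gata6 they were Gm15713 (0.90) and Aph1a (0.87), for Mef2a Il13ra1 (0.94) and Sort1 (0.93), for Mef2c Rusc1 (0.85) and Gys1 (0.82), and for Mef2d Prkcdbp (0.88) and 1600014C10Rik (0.88). Among the factors themselves, Gata4, Srf, Myocd, Tbx20 and Nkx2-5, picked after their values were seen, followed each other with r from 0.66 to 0.86 over their 10 pairs. The r of the genes named for each factor are among the highest values of 10599 genes over 12 points that share libraries. The r among the factors were not selected that way. Both are given as a description.

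Of 25 other cardiac and related factors, 10 passed the filter, 0 were called higher and 1 lower: Hey2, a Notch-responsive repressor of the ventricle, which fell from 1.49 ± 0.411 to 0.895 ± 0.410 FPKM (SD, n = 18; log2 fold change -0.41, SE 0.098; limma adjusted p = 0.00493). Of 18 partners and cofactors, 16 were tested and 1 rose: Smarcd3, the BAF chromatin remodelling subunit that works with GATA4 and TBX5, from 56.1 ± 5.18 to 62.5 ± 4.92 (log2 fold change 0.16, SE 0.046; limma adjusted p = 0.0262). With the random replicate series 0 genes of both lists were called, and without cK15 replicate 4 1 other factor and 0 partners were called; 2 partners were called without cK15 replicate 1 or 3 or control replicate 3 or 4. The list medians were -0.0056 and 0.035, beside -0.012 over all genes tested, of which 4.06% were called higher and 7.18% lower.

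Of 30 target genes, 27 were tested, 3 were called higher and 2 lower, with a median of 0.048. Over all genes tested, 4.06% were called higher and 7.18% lower. Cardiac actin Actc1 rose by 0.15 (SE 0.042; limma adjusted p = 0.0177), the calcium release channel Ryr2 by 0.19 (SE 0.062; 0.0432) and muscle creatine kinase Ckm by 0.22 (SE 0.074; 0.0499). The atrial light chain Myl7 fell, at -0.77 (SE 0.25; limma adjusted p = 0.0404), from 7.37 ± 9.18 to 3.37 ± 2.16 FPKM, and smooth muscle actin Acta2 fell, at -0.35 (SE 0.11; 0.0450), from 97.3 ± 35.7 to 74.8 ± 24.7. The called targets thus went in both directions. Without control replicate 4, 1 target was called, without control replicate 3 2 were, and without cK15 replicate 1 or 4 or control replicate 2 3 were. With the random replicate series 0 were called, and over all 16 settings the count of targets ran from 0 to 9.

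**Figure D5:**
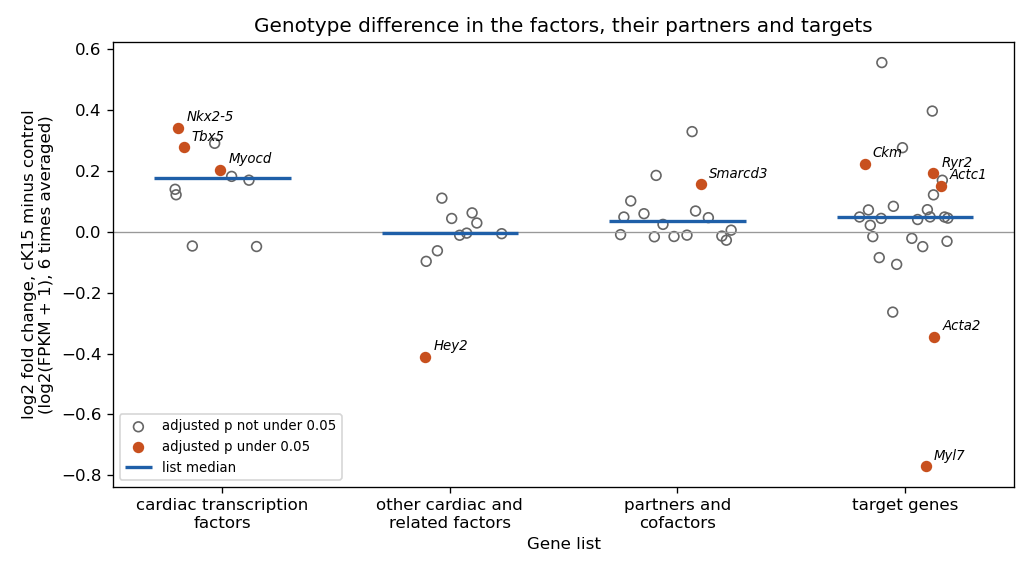
Averaged log2 fold change (y axis, cK15 minus control, log2(FPKM + 1)) of the tested genes of 4 lists (x axis), filled where the adjusted p is under 0.05; blue bars are list medians. The median of the 10 factors is 0.18, and those of the other 3 lists lie between -0.0056 and 0.048.

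Markers of fibroblasts and macrophages were mostly lower in cK15, while the other marker lists held few calls. Of 6 tested fibroblast markers 5 were lower in cK15 (list median -0.29), beside 7.18% of all genes, and their summed level ran from 679 to 878 FPKM in control and from 572 to 772 in cK15. Of 8 macrophage markers 7 were lower (median -0.25; 173 to 268 FPKM summed in control, 153 to 245 in cK15). Of 8 cardiomyocyte markers 2 were higher and 0 lower (median 0.078; 22699 to 39964 FPKM in control, 21592 to 42027 in cK15), and the 2, Ckm and Ryr2, are also on the target list. Of 7 endothelial markers 0 were called, with a median of -0.12 and 1 above 0, and up to 2 were called with a series left out. Of 4 tested blood markers 0 were called, and up to 1 with a series left out. Of 7 smooth muscle and pericyte markers 1 was lower, Acta2, and 3 lay above 0. Of 3 tested atrial markers 1 was lower, Myl7, while Nppa lay above 0 at 0.56 (limma adjusted p = 0.0590). With the random replicate series 2 fibroblast markers and 0 markers of the other lists were called. Without control replicate 3 or 4, 1 macrophage marker was called, without cK15 replicate 4 2 were and without cK15 replicate 3 4 were, while 4 to 6 fibroblast markers were called with any series left out. Cardiomyocyte markers called numbered 0 without cK15 replicate 4 or control replicate 2 or 4, and 1 without each other series. The smooth muscle call was lost without cK15 replicate 3 or 4 or control replicate 2, 3 or 4, and the atrial call without cK15 replicate 1 or 3 or control replicate 3 or 4. No marker of these lists was at 0 in all libraries. In bulk samples, fewer cells of a type and less RNA per cell cannot be told apart, and the part of these markers in the factors' values was not tested.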

How the data were processed

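Heart apex RNA was depleted of ribosomal RNA and sequenced as stranded 100 bp pairs, per the labels' protocols. The authors deposited FPKM values per gene symbol and library in a table per genotype. GSNAP, HTSeq and the build mm10 are named in the submitters' processing notes. Their roles, their versions and the annotation were not given in the sources used here. The FPKM of a library summed to 534040 to 691580, with 10339 to 10829 genes of at least 1 FPKM.

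Values of log2(FPKM + 1) were fitted with limma 3.58.1 (R 4.3.3), for genes averaging 1 FPKM or more, with trended and robust moderation, 12 group means, and Benjamini-Hochberg adjustment over all 10599 genes; an adjusted p under 0.05 was the threshold. The labels do not say that libraries of a group come from separate animals, and p-values then cover only the variation among libraries, part of which may be technical. The models were tested on simulated data with independent noise in each library. These held no library set and no replicate series, so the test does not cover error rates where those act. All 10 factors are named whatever their values; of the other lists called genes are named, up to 6 per list, and for each factor the 2 genes of highest Pearson r over the 12 group means, of which some are not reported here. The genes and lists were chosen with earlier results of these data known.

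Library sets were found from pairwise ratios of genes under a mean of 0.3 FPKM: within the 24, 14.4 to 38.1% of ratios fell in a single bin of 0.01 log2 units, and at most 1.87% did between sets; within the 12 it was 2.32 to 16.95%. Fragments were estimated in the 24 from 945 genes with a single transcript, with 168 bases taken off its length; 54.8% of genes came out within 1%. No count test was run.

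Replicates 3 and 4 occur in both genotypes. All 12 same-numbered pairs correlated in their deviations from the group means (0.157 to 0.508, median 0.245). All 12 share a library set, and pairs of different numbers within a set ran from 0.0016 to 0.54, with a median of 0.147. These pooled ranges overlap. Among the libraries that share steps, same-numbered pairs from 12 am to 4 pm ran from 0.196 to 0.313. Pairs of different numbers in that set and at those times ran from 0.0016 to 0.153. At 8 pm the same-numbered pair of that set was at 0.157. The pairs of different numbers there were at 0.247, 0.163 and 0.141. What a shared number stands for was not tested. The numbers were treated as pairing, and the blocked values stand beside the calls they change. Alternatives were 8 settings, leaving out each of 6 replicate series, and 2 fits with the library sets that were added after seeing the data.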

Additional observations from a re-analysis of the deposited data

How the results depend on the processing

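The count of genes called in the averaged comparison was 1191, and 757 to 1268 when a replicate series was left out, 346 with the replicate block as a random series, 1172 with the fixed replicate block and 2168 when the library set was a term. The count of the 10 factors called was 3, and 1 to 6 with a replicate series left out, 5 with median-ratio rescaling, 5 in the 24 libraries alone, 7 with the set term, 2 with the fixed replicate block and 0 with the random replicate block. Of all 10599 genes, those called higher numbered 430, and 234 to 529, 565, 469, 904, 455 and 94 in the same order of settings. The block changed no other call of a factor. Gene and time pairs called numbered 695, 434 to 634 with a series left out and 1440 with the set term, which called 2 pairs of the factors against 0. Rhythmic genes in control numbered 297, 86 to 297 with a series left out, 470 and 475 with the fixed and random replicate block and 730 with the set term; in cK15 they numbered 114, 33 to 114, 202 and 212, and 261. The rhythm difference gave 0 genes, 0 to 1 with a series left out, 1 with the set term and 2 in the 24 libraries, and no factor was called in any rhythm test under the 16 settings. Mef2c changed sign, between -0.17 and 0.071 over the series left out (0.071 without control replicate 2, 0.039 without cK15 replicate 3), as did Mef2d, between -0.15 and 0.027 (0.017 and 0.027). The other 8 factors stayed above 0 under all 16 settings. Leaving out a series also unbalances the library sets between genotypes, and the cause of these shifts was not tested. Of the 2 factors with estimated fragments, Nkx2-5 rests on 8 to 37 per library of the 24, and depth in the 12 is unknown.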
